A study of Homo sapiens with 20 samples.

Results

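The clusters of KRAB zinc finger genes on human chromosome 19 were examined for CTCF binding and active histone marks before and after depletion of CTCF. They were taken as 3 windows of hg19, chr19:19700000-24600000 in 19p12, chr19:52400000-53900000 in 19q13.41 and chr19:57600000-58700000 in 19q13.43. Every deposited CTCF peak with its summit in a window, and every H3K4me3 or H3K27ac region with its centre in one, was a member, which gave 1691 of the 790168 regions in the 20 libraries, beside 25764 on the rest of chromosome 19. Of the members, 266 were CTCF peaks, 897 were H3K4me3 regions and 528 were H3K27ac regions. CTCF was profiled by ChIP-seq in LNCaP, a prostate cancer cell line, and in IMR90, a line of lung fibroblasts, the latter by a standard and by a low-cell protocol. H3K4me3 and H3K27ac were profiled in LNCaP only. All cells were collected 144 h after transfection with 20 nM siRNA, either a non-targeting control or a pool against CTCF, with 2 libraries per group and 10 groups. The methods of the study describe the replicates as biological duplicates, and p-values measure the spread between these libraries. An siRNA lowers a protein without removing it, and the level of CTCF itself was not analysed here.

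KRAB zinc finger proteins bind DNA through arrays of zinc fingers, many of them within transposable elements, and recruit the co-repressor TRIM28 and the histone methyltransferase SETDB1. Their genes arose by repeated duplication and lie in long clusters in which gene bodies often carry the repressive mark H3K9me3. CTCF, a zinc finger protein without a KRAB domain, binds a long motif and blocks the extrusion of chromatin loops. H3K4me3 marks active promoters, and H3K27ac marks active promoters and enhancers.

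The windows held mostly zinc finger genes, recognised by symbol alone, and the presence of a KRAB domain was not checked. Of 139 protein-coding genes inside them, 111 were zinc finger genes by symbol (79.9%), against 153 of 1341 genes (11.4%) on the rest of the chromosome. The 3 windows held 37 zinc finger genes in 19p12, 35 in 19q13.41 and 39 in 19q13.43. GC content was 42.5% inside and 49.3% outside. The share of 50-base words that are unique in the genome, a measure of how far reads can be placed, was 89.1% inside and 90.1% outside.

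CTCF control sites, that is merged peaks present in both control libraries of an experiment, numbered 45 in the clusters over the 3 experiments, with 20 in 19p12, 11 in 19q13.41 and 14 in 19q13.43. A match to the CTCF consensus with at most 2 mismatches lay within 100 bp of the summit at 33 of the 45. The consensus of 14 bases was searched on both strands, and 3.88% of windows in the clusters as wide as the search around a summit held such a match, against 6.77% of windows on the rest of the chromosome. The sequences below, read from hg19 on the strand of the motif, belong to the strongest LNCaP control sites of each cluster, with the motif in capitals and 8 bases on each side.
chr19:21385636-21386055, near ZNF431: cagaattgTCACTAGACGGCGCaatagcct
chr19:19754480-19755298, at the start of GMIP: tcaggcctCCACCAGGGGGCGCcatggctc
chr19:21665575-21665958, near ZNF429: ctagccggCCGCTAGGAGGCGCcaaacaac
chr19:52740951-52741650, between PPP2R1A and ZNF766: catgatcgCCACTGGGTGGCAGagcaagat
chr19:52642244-52642964, promoter of ZNF616: tgaggaggACACTAGGTGGCGCgcggagga
chr19:57615322-57615720, near USP29: acgtgctgCCACTAGGTGGTGGtggaagcc
chr19:58249466-58250241, near ZNF776: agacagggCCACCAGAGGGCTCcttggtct
chr19:57917863-57918279, near ZNF17: ccactagaCCAGCAGATGGCGCttgtaggc
The sites at GMIP and near ZNF17 matched the consensus in full. Full matches also lay at the sites near ZNF98 and at a second site near USP29. Of the 33 matches, 4 were full, 15 had 1 mismatch and 14 had 2, and 18 lay on the plus strand and 15 on the minus strand.

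Some sites of the clusters had nearly the same sequence, as members of a duplicated family can. Among the 528 pairs of the 33 windows of 30 bases, 3 pairs shared at least 24 bases at the same positions, and the median pair shared 13. These pairs were chosen for display after their values were seen. The site near ZNF776 and a site in an intron of ZNF93, on the other arm of the chromosome, shared 29 of 30 bases, and the next lines show that site and the other 2 pairs.
chr19:20070016-20070418, intron of ZNF93: agacaaggCCACCAGAGGGCTCcttggtct
chr19:21666616-21667054, near ZNF429: gcttaggtCCAGCAGAGGGTGCgattacgg
chr19:23253031-23253380, near ZNF730: gctaagatCCAGTAGAGGGTGCgattactg
chr19:23466748-23467116, in 19p12: attcaggtCCAGCAGAGGGATGcgatcatg
chr19:23622989-23623987, in 19p12: acacaggtCCAGCAGAGGGATGcaatcgtg
The ZNF429 and ZNF730 sites shared 26 bases, and the last pair in 19p12 also shared 26. Bound sites of near-identical sequence are uncertain where reads could be placed at either copy. The site near ZNF776 had fold enrichments of 7.97 and 14.8 in the LNCaP control libraries, and the ZNF93 site had 10.2 and 14.4. In IMR90 the former had 18.5 and 13.6 in control libraries and 10.5 and 8.50 after CTCF siRNA. The latter had 14.2 and 16.1, then 9.97 in replicate 1 of CTCF siRNA and no peak in replicate 2.

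CTCF peaks were sparse in the zinc finger clusters in every control library. In LNCaP the 2 control libraries held 41 and 64 peaks in the clusters, or 5.50 and 8.59 per Mb, against 26.9 and 30.4 per Mb on the rest of chromosome 19. In IMR90 the standard control libraries held 37 and 43 peaks, or 4.97 and 5.77 per Mb, against 24.05 and 24.4. In the low-cell control libraries 21 and 20 peaks gave 2.82 and 2.68 per Mb, against 19.1 and 18.1. The range inside, 2.68 to 8.59 per Mb, did not overlap the range outside, 18.1 to 30.4 per Mb. The log2 ratio of the densities was −2.33 ± 0.37 (SD, n = 6), a 5.03-fold lower density, with p = 0.03125 by a 2-sided exact sign-flip permutation test, the smallest p that 6 libraries allow, and 0.037 after Benjamini-Hochberg adjustment over 4 CTCF tests. This and the later sign-flip tests over 6 libraries treat the libraries as independent, though they are duplicates of 3 experiments in 2 cell lines. Their p-values therefore do not measure the spread between independent experiments. Against the other chromosomes in place of the rest of chromosome 19, the log2 ratio was −1.19.

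**Figure D1:**
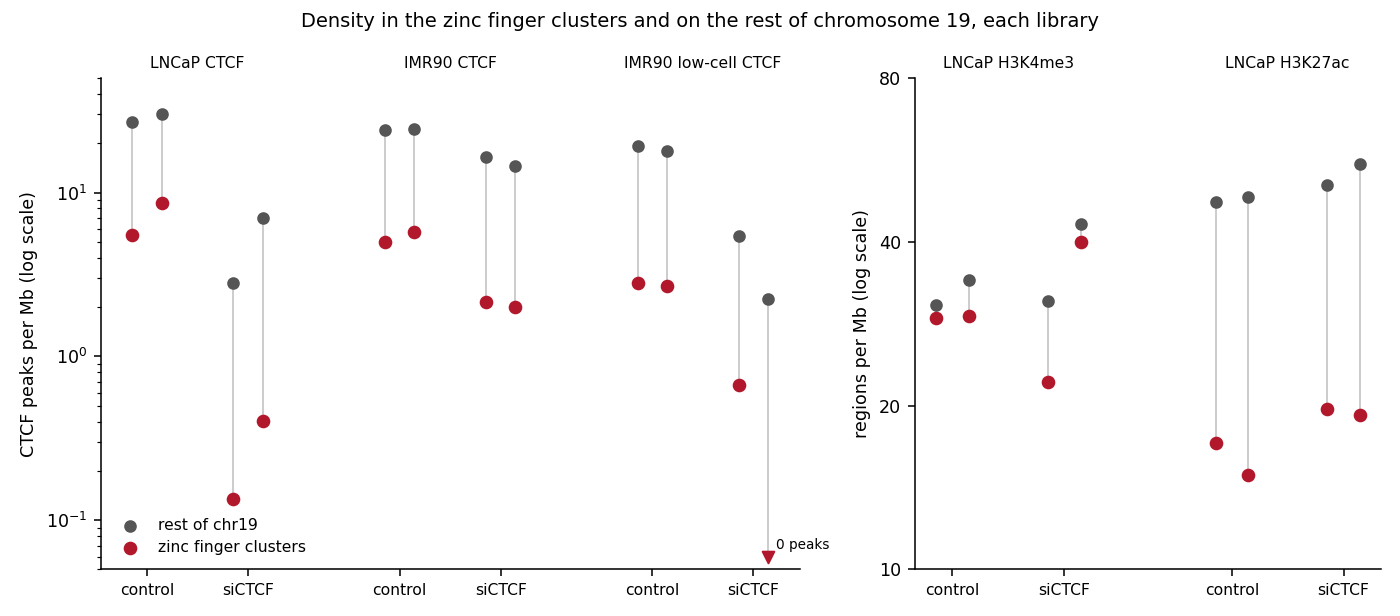
Peaks or regions per Mb (log axis) inside the zinc finger clusters and on the rest of chromosome 19, with 1 point per library and a line joining the values of a library. Control CTCF libraries lie at 2.68 to 8.59 peaks per Mb inside and 18.1 to 30.4 outside, H3K27ac also lies lower inside in each library, and H3K4me3 differs least. The arrow marks the low-cell library with 0 peaks inside.

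The clusters also held fewer CTCF motifs per Mb, and pooled over the clusters a smaller share of them was bound, with no test made of either. Matches to the consensus with at most 1 mismatch numbered 119 in the clusters, or 16.0 per Mb, and 2022, or 41.8 per Mb, on the rest of the chromosome. LNCaP control sites covered 20 of the 119 (16.8%) and 619 of the 2022 (30.6%). IMR90 control sites covered 17 (14.3%) and 555 (27.4%), and low-cell control sites 11 (9.24%) and 551 (27.3%). By cluster the LNCaP share was 5 of 62 (8.06%) in 19p12, 7 of 36 (19.4%) in 19q13.41 and 8 of 21 (38.1%) in 19q13.43, the last above the rest of the chromosome. The part of motif content, base composition or mappability in the density was not tested.

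The 3 clusters were not alike. The density of control peaks was lowest in 19p12, the largest window, where it ran from 0.412 per Mb in a low-cell library to 7.22 per Mb in replicate 2 of LNCaP. It ran from 6 to 8 per Mb in 19q13.41 and from 7.27 to 16.4 per Mb in 19q13.43. Median gaps between LNCaP control sites were 179 kb in 19p12, 113 kb in 19q13.41 and 56.8 kb in 19q13.43, against 24.4 kb on the rest of the chromosome. The corresponding gaps in IMR90 were 315, 211 and 71.0 kb, against 26.6 kb.

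The longest stretch of 19p12 without a control site in any experiment was 849 kb and held 7 zinc finger genes, from ZNF100 to ZNF98. In LNCaP alone the stretch chr19:21666835-22728757 of 1062 kb, with 8 zinc finger genes from ZNF429 to ZNF98, held no control site. The longest such stretch in any experiment was 279 kb in 19q13.41, between ZNF766 and ZNF578, and 303 kb in 19q13.43, from ZIM3 to ZNF548. In the low-cell libraries 19p12 held 2 control sites, those at GMIP and ZNF93.

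**Figure D2:**
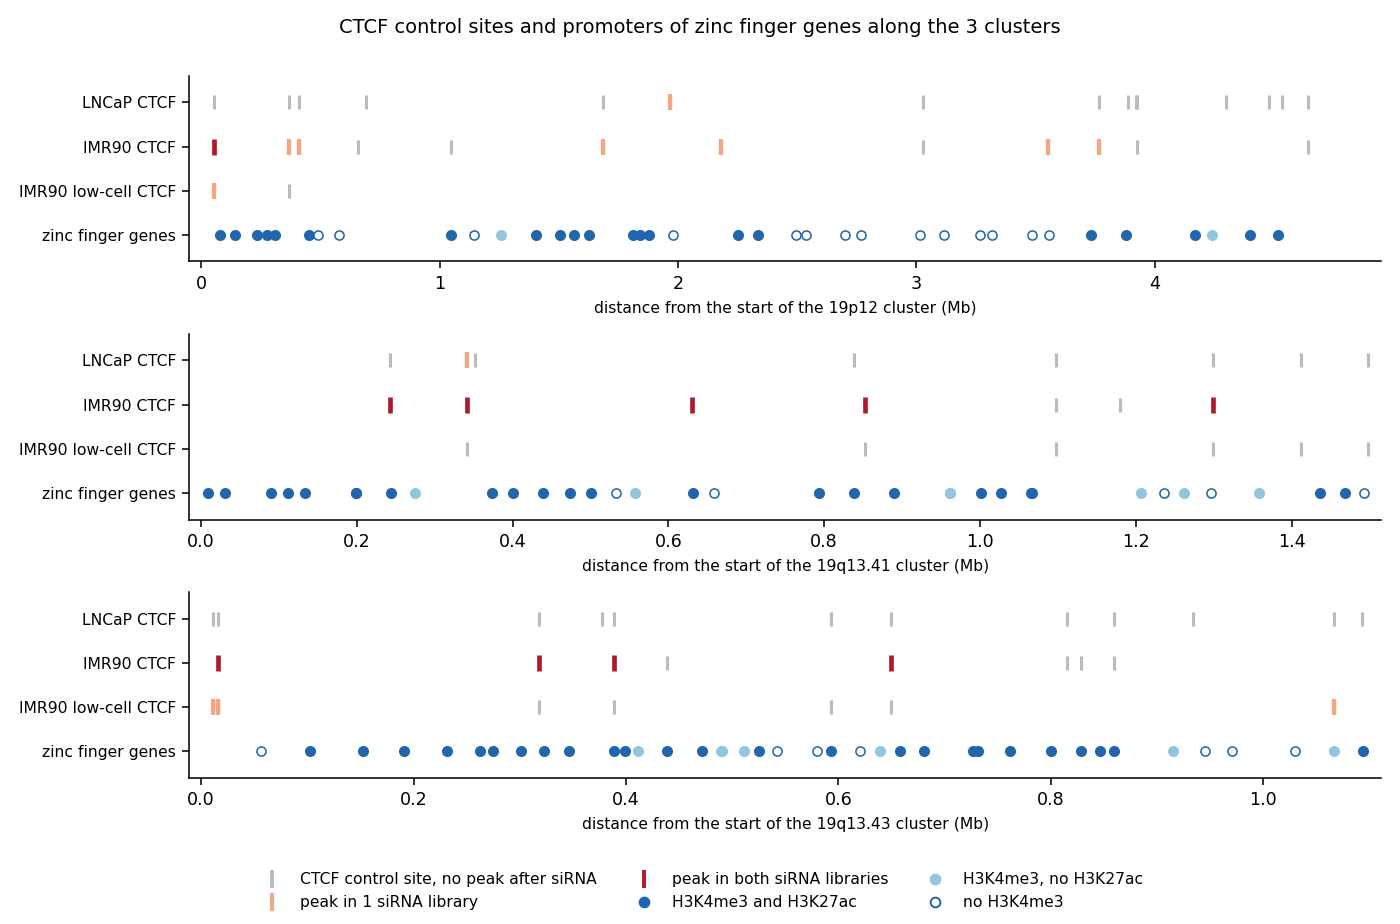
Position of CTCF control sites (ticks, coloured by whether a peak was called after CTCF siRNA in neither, 1 or both libraries) and of the starts of zinc finger genes (circles, filled by the LNCaP marks in both control libraries) along the 3 clusters, in Mb from the start of each window. The stretch of 849 kb without CTCF ticks lies in the middle of 19p12 and holds 5 open circles and the marked ZNF100 and ZNF43, and the red ticks are in IMR90 alone.

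CTCF peaks of the clusters were weaker than those elsewhere on the chromosome. Median fold enrichment over local background, as the authors' peak caller gave it, was 7.97 and 7.13 inside and 12.2 and 11.1 outside in the LNCaP controls. It was 7.83 and 8.12 against 11.9 and 12.5 in IMR90, and 7.12 and 7.02 against 9.49 and 8.92 in the low-cell libraries. Every inside median, at most 8.12, lay below every outside median, at least 8.92. Since fold enrichment is not scaled between libraries, peaks were ranked within the whole list of their library, and the median percentile was 31.8 to 40.6 inside and 53.4 to 61.6 outside. The difference was −21.6 ± 1.50 percentile points (SD, n = 6; 2-sided exact sign-flip permutation test, p = 0.03125, adjusted p = 0.037). The lists of an experiment were also cut to equal numbers of peaks, keeping those with the smallest p-values of the peak caller. This left 0 to 2 cluster peaks in the LNCaP and low-cell control lists, and the difference became 7.44 points over 5 libraries (exact p = 0.5). It was −10.8 and −20.2 points in the IMR90 libraries, with 13 cluster peaks each, and −2.48 in LNCaP replicate 2, with 1. It was 35.4 and 35.3 points in the low-cell libraries, with 2 cluster peaks each.

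The 2 cell lines shared part of the control sites. Of 36 LNCaP control sites in the clusters, 18 (50.0%) overlapped an IMR90 control site, against 855 of 1110 (77.0%) on the rest of the chromosome, and no test was made of this. Of the 45 sites, 9 were control sites in all 3 experiments, 13 in LNCaP only and 9 in IMR90 but not in LNCaP. These counts follow the rule of a peak in both controls, and some such sites had a peak in a control library of the other line. The ZNF808 site had 7.80 in LNCaP control replicate 2, and a LNCaP site in an intron of ZNF254 had 9.49 in IMR90 control replicate 2. Of 15 low-cell control sites, 14 (93.3%) overlapped a LNCaP control site and 10 (66.7%) a standard IMR90 control site. On the rest of the chromosome these were 703 (87.0%) and 697 (86.3%) of 808 low-cell sites, and no test was made of this. The motif share was near that elsewhere, at 83.3% (95% Wilson interval 68.1 to 92.1%, which like other intervals here covers counting error only) in LNCaP against 80.1%. It was 74.1% against 77.8% in IMR90.

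Depletion of CTCF left almost no peaks of the clusters in LNCaP. The CTCF siRNA libraries held 1 and 3 peaks in the clusters, or 0.134 and 0.403 per Mb, against 136 and 340 peaks, or 2.81 and 7.03 per Mb, on the rest of the chromosome. By the reporting summary of the study, replicate 1 of CTCF siRNA was sequenced less deeply than the other LNCaP CTCF libraries, and the part of depth in its peak number was not tested. The 1 peak of replicate 1 lay at no control peak, and 2 of the 3 peaks of replicate 2 lay at control sites. So 0 of 36 control sites kept a peak in replicate 1 and 2 of 36 (5.56%, Wilson interval 1.54 to 18.1%) in replicate 2, against 120 (10.8%) and 307 (27.7%) of 1110 sites elsewhere on the chromosome. Across the genome, 10.0% and 20.6% of LNCaP control sites kept a peak in these libraries. No cluster site kept a peak in both libraries, which allows a share of up to 8.33% by 3 counts and 9.64% by the Wilson interval, beside 109 of 1110 (9.82%) on the rest of the chromosome and 9.26% genome-wide.

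The strongest LNCaP sites of each cluster were therefore all lost by the rule that a persistent site has a peak in both CTCF siRNA libraries. Most sites of like strength on the rest of the chromosome were lost too. In 5 equal bins of strength, 65 of 229 (28.4%) persisted there in the strongest bin and 30 of 226 (13.3%) in the next. It was 9 of 224 (4.02%) in the middle bin and 3 of 217 (1.38%) in the one below. The clusters had 1 site in the strongest bin and 3 in the next. The strongest cluster site was the intergenic one between PPP2R1A, which encodes the scaffold subunit of protein phosphatase 2A, and ZNF766. It had 24.8 and 35.4 in the control libraries, no peak in replicate 1 of CTCF siRNA and 5.28 in replicate 2. In IMR90 the same site had 24.3 and 29.6 in control and 25.3 and 28.04 after CTCF siRNA, so the values of the 2 treatments overlapped there. In the low-cell libraries it had 4.89 and 4.48 in control and no peak after CTCF siRNA.

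The site near ZNF431 had 15.9 and 29.7 in the LNCaP controls and no peak after CTCF siRNA. The site in an intron of ENSG00000269237 near ZNF429 had 17.3 and 13.9, and kept a peak of 7.33 in replicate 2 only. The site at the start of GMIP had 16.6 and 21.02 and none after CTCF siRNA. The ZNF431 and GMIP sites were thus lost in both LNCaP libraries, and the ZNF429 site in 1 of 2. The site at the ZNF616 promoter went from 17.1 and 22.04 to no peak in both libraries. The site 2091 bp from the start of ZNF665, chr19:53698518-53699185, had no motif match and went from 10.2 and 14.4 to none. In 19q13.43 the sites near USP29, a ubiquitin protease gene, near ZNF776 and near ZNF17 had 15.1 and 13.6, 7.97 and 14.8, and 7.53 and 10.8, and none had a peak after CTCF siRNA.

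In IMR90 part of the cluster sites persisted. The standard CTCF siRNA libraries held 16 and 15 peaks in the clusters, or 2.15 and 2.01 per Mb, against 16.6 and 14.6 per Mb outside. In each library 13 of 27 control sites (48.1%, Wilson interval 30.7 to 66.0%) kept a peak, against 762 (74.5%) and 674 (65.9%) of 1023 on the rest of the chromosome and 60.0% and 57.5% genome-wide. Both libraries kept a peak at 10 of 27 sites (37.0%, 21.5 to 55.8%), against 643 of 1023 (62.9%), and 51.4% genome-wide. By cluster this was 1 of 12 sites in 19p12, 5 of 7 in 19q13.41 and 4 of 8 in 19q13.43. No site of the clusters was gained, but few could have been. CTCF siRNA sites, merged peaks shared by the 2 CTCF siRNA libraries of an experiment, numbered 11 in the clusters in IMR90. They numbered 0 in LNCaP and 0 in the low-cell experiment, so the gained count there was 0 whatever the controls held. Of the CTCF siRNA sites of the genome, 129 of 16067 (0.803%) were gained in IMR90. It was 50 of 3220 (1.55%) in LNCaP and 9 of 1853 (0.486%) in the low-cell experiment. At such shares 11 sites are too few to show whether gains were rarer in the clusters.

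The 10 persistent IMR90 sites, named here after their values were seen, included 8 that were also LNCaP control sites, and 7 had a motif match. The highest was at the promoter of ZNF772 (chr19:57988786-57989398), with 39.5 and 47.1 in control and 19.9 and 15.9 after CTCF siRNA, and with no motif match. The same site had 5.99 and 7.31 in the LNCaP controls and 7.14 and 6.08 in the low-cell controls, with no peak after CTCF siRNA in either. The GMIP site had 18.3 and 19.6 in control and 8.35 and 8.46 after CTCF siRNA, and was the persistent site of 19p12.

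In 19q13.41 the 5 persistent sites lay between PPP2R1A and ZNF766, at the promoters of ZNF616 and ZNF808, near ZNF600 and near ZNF665. ZNF808, which encodes a KRAB protein needed for development of the pancreas, had 11.2 and 14.4 at its promoter in control and 7.12 and 6.88 after CTCF siRNA. ZNF616 had 15.2 and 13.3, then 8.35 and 6.77, the ZNF600 site 12.2 and 12.7, then 4.78 and 6.91, and the ZNF665 site 31.8 and 23.4, then 10.5 and 13.5. In 19q13.43 the site near USP29 had 12.3 and 10.6 in control and 7.37 and 13.8 after CTCF siRNA, and the ZNF17 site 16.6 and 16.0, then 11.5 and 5.53. Control and CTCF siRNA values overlapped at the USP29 site and at the PPP2R1A site, and at the other 8 sites both siRNA values lay below both control values. Fold enrichment is not scaled between libraries, so these values do not measure how far binding fell.

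The IMR90 sites that persisted had higher control values, with some overlap. Mean control fold enrichment was 11.5 to 43.3 (median 16.2) at the 10 persistent sites and 4.21 to 16.5 (median 7.85) at the 17 others. All IMR90 sites of chromosome 19 were divided by strength into 5 equal bins. In the 2 weakest bins 0 of 11 and 0 of 3 cluster sites persisted, against 32 of 199 (16.1%) and 69 of 207 (33.3%) sites elsewhere. In the middle bin it was 6 of 9 (66.7%) against 149 of 201 (74.1%). In the 2 strongest bins all 4 cluster sites persisted, against 190 of 209 (90.9%) and 203 of 207 (98.1%). Most cluster sites lay in the weak bins, and the middle bin held most of those that persisted. In LNCaP 15 of 36 cluster sites (41.7%) lay in the weakest bin, against 19.3% of sites on the rest of the chromosome.

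**Figure D3:**
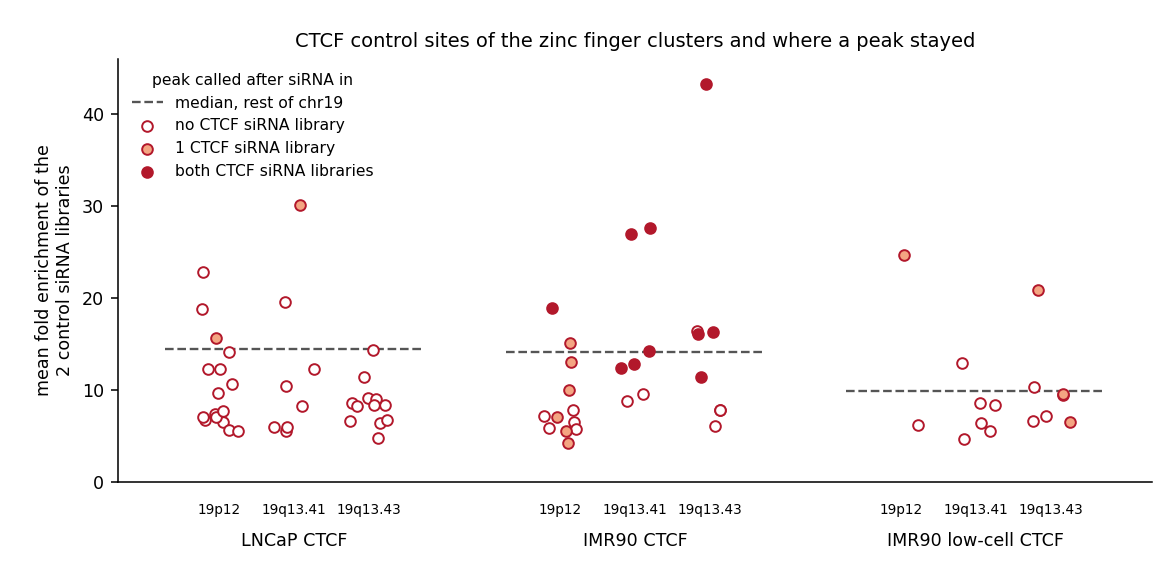
Mean fold enrichment of the 2 control libraries at every CTCF control site of the clusters, by experiment and cluster, with points filled by whether a peak was called after CTCF siRNA in neither, 1 or both libraries, and a dashed line at the median of the rest of chromosome 19. That median is 14.5 in LNCaP, 14.1 in IMR90 and 9.94 in the low-cell experiment, and most cluster sites lie below it. The 10 IMR90 points with a peak in both libraries lie between 11.5 and 43.3, and those with a peak in 1 library between 4.21 and 15.2.

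In the low-cell experiment the CTCF siRNA libraries held 5 and 0 peaks in the clusters, against 264 and 109 on the rest of the chromosome. Peaks were kept at 4 of 15 control sites in replicate 1 (26.7%, Wilson interval 10.9 to 52.0%; 28.1% genome-wide) and at 0 of 15 in replicate 2, which allows up to 20.0% by 3 counts and 20.4% by the Wilson interval (11.1% genome-wide). The rest of the chromosome kept 239 (29.6%) and 102 (12.6%) of 808 sites. In replicate 2 the rest of the chromosome was at least 5.60-fold denser, with 3 counts taken for the library at 0. The site near USP29 had 11.4 and 7.78 in the low-cell controls and 12.8 in replicate 1 of CTCF siRNA. The site at the promoter of ZNF329 had 22.8 and 19.1, then 10.9 in replicate 1, and it was named after its values were seen. In the standard IMR90 libraries it had no peak in control replicate 1 and 7.35 in control replicate 2. It was thus not a control site there, yet it had peaks of 9.62 and 10.7 after CTCF siRNA.

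**Figure D4:**
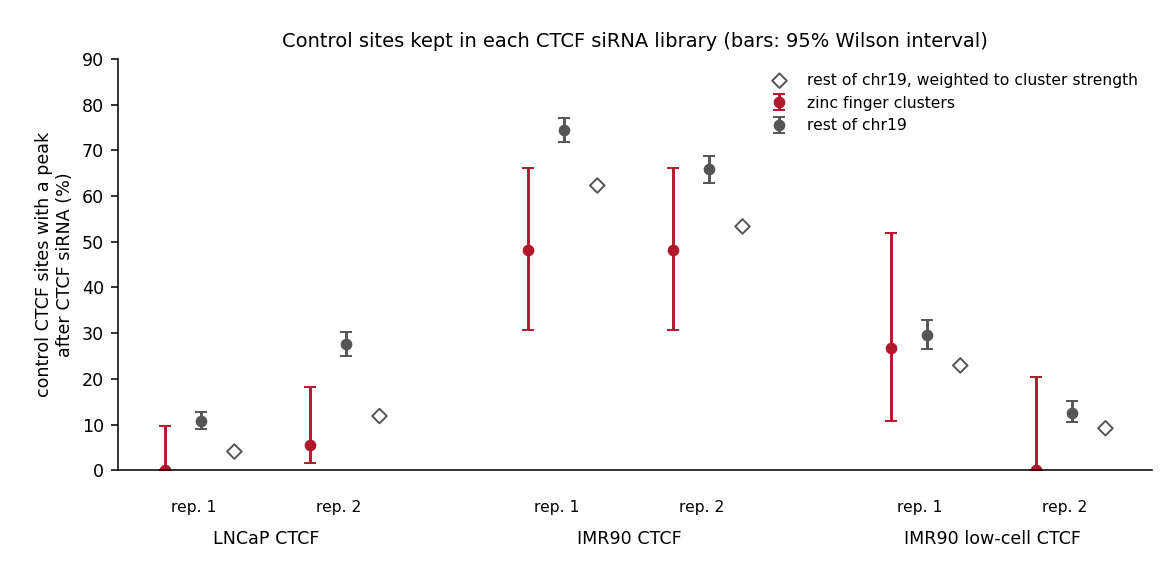
Percentage of CTCF control sites that kept a peak in each CTCF siRNA library, in the clusters (red) and on the rest of chromosome 19 (grey), with 95% Wilson intervals, and the rest weighted to the strength of the cluster sites (open diamonds). The red point lies below the grey one in each of the 6 libraries, and below the diamond in 5 of 6, the exception being replicate 1 of the low-cell experiment.

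Over the 6 CTCF siRNA libraries, the share of control sites that kept a peak was lower in the clusters by 15.4 percentage points on average, since the difference was −15.4 ± 8.42 (SD, n = 6; 2-sided exact sign-flip permutation test, p = 0.03125, adjusted p = 0.037). The 2 libraries of an experiment share their control sites. With the rest of the chromosome weighted to the strength bins of the cluster sites, the differences were −4.12, −6.34, −14.2, −5.19, 3.71 and −9.22 points, and their mean was −5.88 (exact p = 0.0625). The log2 density ratio of clusters to the rest changed by −0.98 after CTCF siRNA (exact permutation of treatments within experiments, p = 0.037, adjusted p = 0.037), with −2.20 in LNCaP, −0.73 in IMR90 and 0.00 in the low-cell experiment. The low-cell and overall values are upper limits, since 3 counts stood for the library with 0 peaks, and low-cell replicate 1 alone had a ratio of −3.02 against −2.76 and −2.75 in the controls. With 0.5 peaks added to every count, an alternative chosen after seeing the data, the overall change was −1.26 (exact p = 0.00926). With the replicate block it was −0.98 (exact p = 0.0938), and against other chromosomes −0.70 (exact p = 0.130). The LNCaP value rests on 1 and 3 peaks. The overall change was −0.89 (exact p = 0.0556) at a q-value of at most 0.001, and it became 0.33 when lists were cut to equal length (exact p = 0.324). In the cut lists 3 counts also stood for each list with 0 cluster peaks. LNCaP control replicate 1, with 0 peaks, thus had a ratio of −3.23, above the −4.52 of replicate 2 with 1 peak. After CTCF siRNA, LNCaP replicate 2 with 0 peaks had −2.91 and replicate 1 with 1 peak had −4.39. For this reason no direction is drawn from the 0.33. In the full lists the exact p was 0.0556 without replicate 2 of the IMR90 control or either IMR90 CTCF siRNA library. It was also 0.0556 without replicate 1 of the low-cell CTCF siRNA. The change in LNCaP minus that in IMR90 was −1.48 (exact permutation test, p = 0.167, with a smallest possible p of 0.0556), so a difference between the cell lines was not shown.

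CTCF lay at few promoters of zinc finger genes, as of all genes, and the shares below were not tested against each other. A promoter was taken as 1000 bp on both sides of a gene start. LNCaP control sites lay at 7 of 111 zinc finger promoters in the clusters (6.31%, against 10.1% of all protein-coding promoters), those of ZNF616, ZNF611, ZNF772, ZNF551, ZNF256, ZNF329 and ZNF274. Zinc finger promoters on the rest of the chromosome had 15 of 153 (9.80%), and other promoters there 114 of 1188 (9.60%). By cluster, LNCaP control sites lay at 0 of 37 in 19p12, 2 of 35 (5.71%) in 19q13.41 and 5 of 39 (12.8%) in 19q13.43. IMR90 control sites also lay at 7 of 111 (10.0% genome-wide), and low-cell sites at 3 (2.70%, against 7.16%). By cluster the IMR90 counts were 1 of 37, 2 of 35 and 4 of 39 (10.3%). The sequences at 5 of these promoters follow, with the motif in capitals.
ZNF616: tgaggaggACACTAGGTGGCGCgcggagga
ZNF611: ttttagaaCCGGCAGAGGGCAGggccgggg
ZNF256: gccaaaccCCTGTAGGGGGCGCtgggaaat
ZNF329: ccctgctgCCACTGGGGGGCGCcatcgtcg
ZNF274: gtacacgaCCACCAGAGGGAGGcagagggc
The ZNF611 promoter had 15.0 and 5.86 in the LNCaP controls, and ZNF329 had 10.8 and 5.85. ZNF256 had 8.39 and 9.75, and ZNF274, whose protein binds within other zinc finger genes and recruits SETDB1, had 7.45 and 9.34. ZNF772 had 5.99 and 7.31, and ZNF551 had 3.42 and 6.11. None of the 7 promoters had a LNCaP peak after CTCF siRNA. Counted over sites, 22.2% of LNCaP control sites in the clusters lay at a promoter, against 9.55% on the rest of the chromosome.

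H3K27ac regions were sparser in the clusters than elsewhere on the chromosome in every library, and H3K4me3 regions differed less. H3K4me3 control libraries held 28.99 and 29.3 regions per Mb inside and 30.6 and 34.1 outside, and CTCF siRNA libraries 22.1 and 40.0 against 31.2 and 43.2. H3K27ac control libraries held 17.0 and 14.9 regions per Mb inside and 47.3 and 48.3 outside, and CTCF siRNA libraries 19.7 and 19.2 against 50.9 and 55.6. The H3K27ac ranges, 14.9 to 19.7 and 47.3 to 55.6, did not overlap, and the H3K4me3 ranges did. The log2 ratio was −0.23 ± 0.19 (SD, n = 4) for H3K4me3 and −1.52 ± 0.14 (SD, n = 4), or 2.86-fold lower, for H3K27ac. For each, a 2-sided exact sign-flip permutation test gave p = 0.125, the smallest that 4 libraries allow, and adjusted p = 0.25 over 4 histone tests. With the other chromosomes for comparison, the H3K4me3 ratio turned to 0.91, and it was −0.63 for the 50% of each list ranked first and −0.50 in lists of equal length. The H3K27ac ratio in these settings was −0.77, −1.27 and −1.40.

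The difference in density lay mostly away from promoters. Among regions present in all 4 libraries, the rest of the chromosome was 2.53-fold denser than the clusters away from promoters for H3K4me3 and 4.51-fold for H3K27ac. At promoters it was 1.20-fold and 1.25-fold denser, and over all such regions 1.56-fold and 2.14-fold. There were 18.7 protein-coding genes per Mb inside and 27.7 outside. Of the H3K27ac regions present in all 4 libraries, 72.7% in the clusters and 42.5% on the rest of the chromosome lay at a promoter.

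Most zinc finger promoters of the clusters carried active marks in LNCaP. Both control libraries had H3K4me3 at 85 of 111 (76.6%, Wilson interval 67.9 to 83.5%; 61.5% of all protein-coding promoters) and H3K27ac at 69 (62.2%, 52.9 to 70.6%; 52.5% of all). All 85 and all 69 were also marked in both CTCF siRNA libraries. Nearly all control-marked promoters elsewhere were too. For genes other than zinc finger genes, these were 699 of 706 with H3K4me3 and 639 of 662 with H3K27ac on the rest of the chromosome. On other chromosomes they were 11091 of 11203 and 9328 of 9522. Zinc finger promoters on the rest of the chromosome had H3K4me3 at 134 of 153 (87.6%) and H3K27ac at 103 (67.3%), and other promoters there had 59.4% and 55.7%. Of the 111, 69 had both marks, 16 had H3K4me3 alone, 26 had neither and 0 had H3K27ac alone.

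The 26 promoters without a mark in both control libraries were 14 of 37 in 19p12, 5 of 35 in 19q13.41 and 7 of 39 in 19q13.43. H3K4me3 lay at 62.2% of zinc finger promoters in 19p12, 85.7% in 19q13.41 and 82.1% in 19q13.43. In 19p12, 10 neighbouring zinc finger genes over 1064 kb lacked a mark common to both controls, namely ZNF208, ZNF257, ZNF676, ZNF729, ZNF98, ZNF492, ZNF99, ZNF723, ZNF728 and ZNF730. Within the run, ZNF257 had an H3K4me3 region of 600 bp in control replicate 2 but not in control replicate 1, and the other 9 had none in either control. After CTCF siRNA, replicate 2 had regions of 1750 bp at ZNF257, 900 bp at ZNF723, 950 bp at ZNF728 and 1050 bp at ZNF730. Replicate 1 had one of 750 bp at ZNF728 alone. Replicate 2 of CTCF siRNA was the longest H3K4me3 list, with 59920 regions, and the part of list length was not tested. The starts of 5 of the 10 lay in the 849 kb stretch without CTCF sites, which also held the marked genes ZNF100 and ZNF43. The longest run elsewhere in the clusters was of 3 genes in 19q13.43, ZSCAN1, ZNF135 and ZSCAN18, over 84.4 kb.

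**Figure D5:**
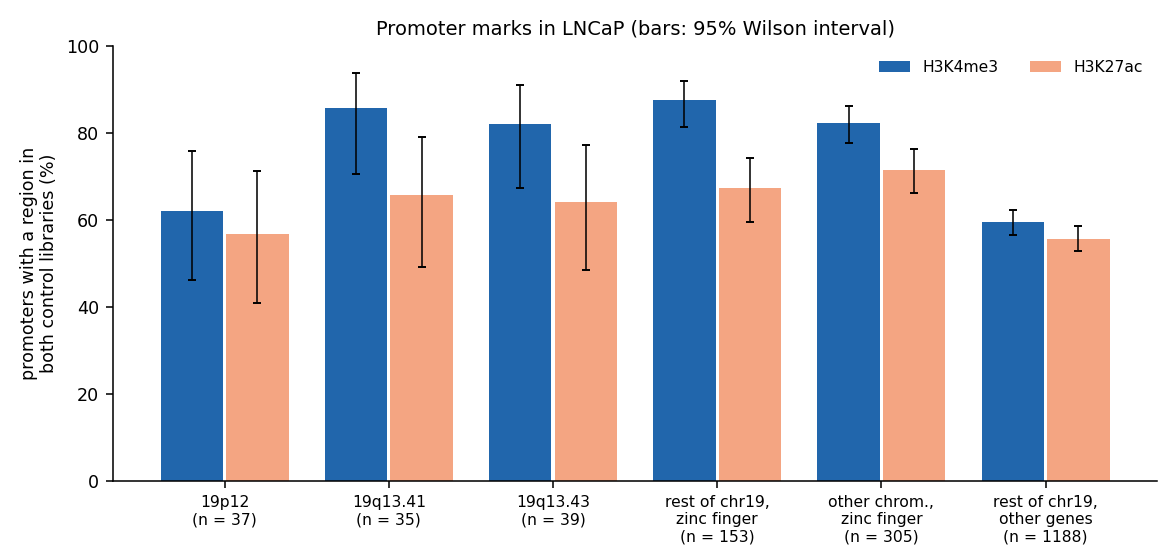
Percentage of promoters with an H3K4me3 or H3K27ac region in both LNCaP control libraries (bars start at 0, error bars are 95% Wilson intervals), for zinc finger genes of each cluster, of the rest of chromosome 19 and of other chromosomes, and for the other genes of the rest of chromosome 19. The H3K4me3 bar of 19p12, at 62.2%, is the lowest of the zinc finger groups and is near that of the other genes, at 59.4%.

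Named zinc finger genes differed in their marks, and here the width of the called region is the value, since the histone lists give no scaled height. At ZNF91, which encodes a repressor of SVA elements, H3K27ac spanned 6850 and 2650 bp in control and 6400 and 6200 bp after CTCF siRNA, and H3K4me3 2800 and 2450, then 2400 and 3150 bp. At ZNF93, which encodes a repressor of LINE-1 elements, H3K4me3 spanned 2600 and 2650 bp in control and 2650 and 3000 bp after CTCF siRNA, and H3K27ac 1550 and 1050, then 1600 and 2550 bp. Control and CTCF siRNA widths overlapped in 3 of these 4 comparisons, and at ZNF93 the H3K27ac widths after CTCF siRNA were the wider ones.

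ZNF675, ZNF274, ZNF587 and ZNF83 had both marks in all 4 libraries. At ZNF274 H3K4me3 spanned 2600 and 2750 bp in control and 2700 and 3300 bp after CTCF siRNA, and H3K27ac 1650 and 1900, then 1950 and 2750 bp. ZNF154, a gene often methylated in tumours, and ZNF208 had neither mark at the promoter in any library, though an H3K4me3 region in the UTR of ZNF154 (chr19:58207551-58208350) was called in both CTCF siRNA libraries alone. ZNF677 had H3K4me3 of 1400 and 1500 bp in control and 1600 and 1600 bp after CTCF siRNA, and no H3K27ac. ZNF671 had H3K4me3 in all 4 libraries, at 2650, 2250, 2250 and 2350 bp, and H3K27ac in replicate 2 of CTCF siRNA only, at 1800 bp.

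Regions at zinc finger promoters of the clusters had smaller median widths than at promoters of other genes, with no test made. Median H3K4me3 widths were 2475 and 2500 bp in control and 2400 and 2650 bp after CTCF siRNA, against 2800, 3000, 2800 and 3100 bp at promoters of other genes on the rest of the chromosome. Median H3K27ac widths were 1650, 1500, 1700 and 1975 bp against 2350, 2200, 2500 and 3100 bp. Zinc finger promoters on the rest of the chromosome lay between, with 2600, 2750, 2650 and 2750 bp for H3K4me3 and 2200, 1850, 2300 and 2600 bp for H3K27ac. The genes of the co-repressors and chromatin readers that act with KRAB proteins (TRIM28, SETDB1, ATF7IP, CBX1, CBX3, CBX5, MPHOSPH8, TASOR, PPHLN1 and MORC2) carried both marks in all 4 libraries at 10 of 10 promoters, beside 61.5% of all promoters with H3K4me3 and 52.5% with H3K27ac in both controls. Of these, TRIM28, on chromosome 19 outside the clusters, had a CTCF control site in LNCaP, and none had one in IMR90.

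After CTCF siRNA, no change of the marks was shown in the clusters relative to the rest of the chromosome. The log2 density ratio of clusters to the rest changed by −0.15 for H3K4me3 and by 0.13 for H3K27ac (exact permutation tests, p = 0.667 and p = 0.667, with a smallest possible p of 0.333). Regions present in at least 2 of 4 libraries numbered 175 for H3K4me3, of which 119 (68.0%; 58.9% genome-wide) were in all 4, and 133 for H3K27ac, of which 99 (74.4%; 56.9% genome-wide) were in all 4. Of the H3K4me3 regions, 7 (4.00%; 2.55% genome-wide) were in both control libraries alone and 8 (4.57%; 6.44% genome-wide) in both CTCF siRNA libraries alone. Of the H3K27ac regions, 0 (1.85% genome-wide) were in control alone and 13 (9.77%; 13.2% genome-wide) in CTCF siRNA alone. On the rest of chromosome 19 the H3K4me3 shares were 77.4% in all 4 libraries, 0.965% in control alone and 4.31% in CTCF siRNA alone, and the H3K27ac shares were 65.5%, 2.19% and 10.3%. For CTCF siRNA alone the clusters thus lay near the rest of the chromosome for both marks.

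At the promoters of 4 zinc finger genes a mark was found in each library of CTCF siRNA but in no control library. H3K4me3 regions of 600 and 1200 bp lay at ZNF486 and of 750 and 950 bp at ZNF728 (2 of 111; 0.769% of all promoters). H3K27ac regions of 950 and 1750 bp lay at ZNF530 and of 1200 and 1250 bp at ZNF606 (2 of 111; 1.45% of all promoters). All 8 regions were narrower than the median region at zinc finger promoters of the same library. No zinc finger promoter of the clusters had a mark in control alone, where the shares of all promoters were 0.104% for H3K4me3 and 0.387% for H3K27ac. ZNF728 belongs to the run of 10 genes, and ZNF530 and ZNF606 are among the 16 with H3K4me3 alone.

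Away from promoters, 4 of the 13 H3K27ac regions present after CTCF siRNA alone lay in or near ZNF254, within chr19:24173451-24259250, and were 1300 to 1500 bp wide. These were singled out after their values were seen. Of the 7 H3K4me3 regions present in control alone, those in coding exons lay in ZNF836 (chr19:52659101-52660350) and ZNF772 (chr19:57984401-57985850).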

How the data were processed

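ChIP-seq lists of 20 libraries were used, 12 for CTCF and 8 for histone marks, grouped by their labels. Standard libraries were aligned by the authors to the hg19 genome with Bowtie, and low-cell libraries with BWA and molecular identifiers, and ambiguous or duplicate reads were dropped in the former and duplicates in the latter. CTCF peaks were called by the authors with MACS2 and histone regions with PeakRanger, per library and without pooling. The deposited CTCF lists give a fold enrichment over local background, and p-values and q-values on a −log10 scale, and the deposited histone lists give a score whose meaning is not stated. The lists hold no depth, and the read numbers in the reporting summary of the study entered no computation. A peak lost from a list fell below a threshold, which does not measure how far binding fell, and list length can move with depth and threshold.

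Peaks that shared 1 bp or more were taken as overlapping. Control sites have a peak in both control libraries, persistent sites also in both CTCF siRNA libraries, and gained sites in both CTCF siRNA libraries alone. The 4 region lists of each mark were merged, and merged regions found in at least 2 lists were kept. Densities used bases other than N. For a library with 0 peaks in the clusters, 3 counts were used. Genes were from GENCODE release 44 on hg19. Zinc finger genes were recognised by symbol (ZNF, ZFP, ZSCAN, ZKSCAN, ZIM and ZIK). Tests were 2-sided exact permutation tests over libraries, adjusted over 4 CTCF and 4 histone tests, and scripts were tested on simulated data. Named sites were the 3 strongest lost LNCaP sites of each cluster, and named genes were a set list, those with a LNCaP CTCF site at the promoter and those marked in 1 treatment only. The members, lists and rules were chosen with earlier results of these data known. Python 3.11.15, numpy 2.4.6, pandas 2.3.3, scipy 1.17.1 and matplotlib 3.10.9 were used. Alternatives were a q-value of at most 0.001, lists of equal length, a stricter overlap, other window limits, other comparison regions, weighting by strength, a replicate block and leaving out each library. Where lists were cut, CTCF peaks were ranked by p-value and histone regions by their score, lowest first, with wider regions first at equal scores. Cluster limits at the outermost zinc finger genes, starts of all transcripts, an added count of 0.5 and leaving out the low-cell experiment were chosen after seeing the data.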

Additional observations from a re-analysis of the deposited data

How the results depend on the processing

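The lower density, strength and persistence of CTCF in the clusters kept their direction without each library in turn, with ranges of −2.43 to −2.24 (log2), −21.9 to −21.1 points and −17.9 to −13.2 points, and exact p-values then were 0.0625, the smallest that 5 libraries allow, except that persistence stayed at 0.03125 where a control library was left out. Strength turned to 7.44 points (exact p = 0.5, 5 libraries) in lists of equal length, where few cluster peaks were left. Only the low-cell libraries, with 2 cluster peaks each, had positive values there, and the IMR90 and LNCaP values stayed negative. Persistence was −13.8 points (exact p = 0.25, 4 libraries) in equal lists and −5.88 points (p = 0.0625) with the rest weighted by strength. The change of the CTCF density ratio was −0.89 (exact p = 0.0556) at the stricter q-value, 0.33 (p = 0.324) in equal lists, −0.70 (p = 0.130) against other chromosomes, −1.46 (p = 0.0556) without the low-cell experiment, an alternative chosen after seeing the data, and −1.07 to −0.89 without each library. In equal lists 3 counts stood for each list with 0 cluster peaks, so no direction is drawn from the 0.33. Sites with a peak in either CTCF siRNA library numbered 2 in LNCaP, 16 in IMR90 and 4 in low-cell, and leaving out a library gave 0 to 2, 10 to 13 and 0 to 4.

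Against other chromosomes the density ratio was 0.91 for H3K4me3 and −0.77 for H3K27ac, and the H3K27ac change was −0.026. Without each library the H3K4me3 change was −0.35 to 0.037, turning sign without replicate 1 of CTCF siRNA. The H3K4me3 ratio was then −0.27 to −0.14, the H3K27ac ratio −1.57 to −1.46 and the H3K27ac change 0.02 to 0.25. Regions in 1 treatment only numbered 28, and 10 in equal lists. They numbered 35 to 167 without each library, since a lone library then suffices. Promoters with H3K4me3 numbered 86 to 89 and with H3K27ac 71 to 73 without a control library. The cause of these shifts was not tested beyond the fewer peaks and libraries named.

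The replicate block, which pairs libraries by number, left the CTCF change at −0.98 and moved its exact p to 0.0938. The numbers are shared as names only, and deviations of same-numbered libraries correlated at 0.30 in LNCaP, −0.01 in IMR90, 0.06 in low-cell, 0.19 for H3K4me3 and 0.01 for H3K27ac. LNCaP persistence in equal lists could not be computed, since no control site was left in the clusters.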

Other observations

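A smaller share of the longer LNCaP control list overlapped its partner in 19p12 than on the rest of chromosome 19, and no test was made of this. Replicate 2 held 35 CTCF peaks in 19p12, of which 16 (45.7%) overlapped a peak of replicate 1, while all 17 peaks of replicate 1 overlapped a peak of replicate 2. The 19 unshared peaks of replicate 2 had a median fold enrichment of 5.09. On the rest of chromosome 19, 75.7% of replicate 2 peaks were shared, and over all clusters 56.3%.

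The 28 genes of the windows that were not zinc finger genes had H3K4me3 in both controls at 16 promoters (57.1%) and H3K27ac at 14 (50.0%), against 76.6% and 62.2% at zinc finger promoters of the clusters, and CTCF control sites of LNCaP lay at 3 (10.7%).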
